A study of Mus musculus with 9 samples.

Results

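The interferon system of αTC1 cells was followed through 52 genes, of which 4 encode receptor chains, 3 Janus kinases, 8 transcription factors, 12 sensors and effectors of foreign nucleic acid, and 25 other interferon-induced proteins. The members were taken by symbol from the deposited table, and all 52 were found among its 33212 rows. The cells, a glucagon-producing line from a mouse tumour of pancreatic alpha cells, received 4 µM EPZ011989 for 7 days (n = 4) or DMSO, the solvent, for 7 days (n = 5), and their poly-A RNA was sequenced. All cells were grown in low-glucose medium with serum, and no interferon treatment is given in the labels. EPZ011989 inhibits EZH2, the histone methyltransferase of Polycomb repressive complex 2, which marks silent genes. Replicates are labelled biological, but nothing tells whether each came from its own culture, so a p-value here speaks of the spread among these libraries. EPZ011989 against DMSO is the only comparison, in a single cell line.

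Interferons are secreted proteins that warn cells of infection. Type I interferons bind IFNAR1 and IFNAR2, and type II interferon binds IFNGR1 and IFNGR2; the receptor-bound kinases JAK1, JAK2 and TYK2 then activate STAT factors. STAT2 joins with IRF9 in the complex ISGF3, which binds the interferon-stimulated response element (ISRE), while the type II branch acts through the gamma-activated site (GAS). Inside the cell, RIG-I and its relatives read viral RNA, other sensors read DNA, and both induce interferon through IRF3 and IRF7. Islet cells respond to interferons by raising antiviral genes.

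In EPZ011989 cells 14 members rose and 1 fell, among the 39 that passed the filter on low counts. The rises lay mainly in members of low or middling level. They include the receptor chains Ifnar1 and Ifngr1, the kinase Jak1, the factors Irf7 and Irf8, the sensors Ddx58, Aim2, Zbp1 and Oas1a, and the induced genes Isg20, Oasl1, Bst2, Xaf1 and Dtx3l. Ifih1, a sensor of long double-stranded RNA, was the member that fell. A member is called here when its adjusted p is under 0.05 in the quasi-likelihood F test of edgeR, with Benjamini-Hochberg adjustment over all 14754 genes tested. Of those genes 16.2% were called higher and 7.96% lower. Among the 39 tested members the shares were 35.9% and 2.56%, and the median log2 fold change was 0.34, against 0.03 over all genes tested. That median is the same with Irf8, at 0 in DMSO, set at its lower bound.

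The level of a gene bears on these shares. Of the 8 tested members with a mean under 1 CPM (counts scaled to the size of the library), 4 were called higher and 4 were not called, where the background at that level was 20.8% higher and 0.554% lower. At 1 to 10 CPM 6 of 12 were called higher, against a background of 33.4%, and the 1 fall lay there, against 3.41%. At 10 CPM or more 4 of 19 were called higher and 15 were not called, against a background of 9.87% higher and 11.4% lower. In 13 of the 39 tested members every EPZ011989 library lay above every DMSO library, and in 1, Trim25, every one lay below; over all genes tested those shares were 16.1% and 8.77%. Of the 14 rises, 10 were of at least 2-fold. Of the 39 tested, 6 passed the filter with fewer than 4 DMSO libraries past its level, so their being tested rests in part on a higher level with EPZ011989. They include all 4 calls under 1 CPM (Irf8, Zbp1, Xaf1 and Oas1a), so the share at that level rests wholly on such genes. Of the 33 tested members with at least 4 DMSO libraries past the level, 10 were called higher (30.3%) and 1 lower (3.03%), against 14.1% and 8.74% of 13425 genes that met the same condition. The other 13 members were too low to test.

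**Figure D1:**
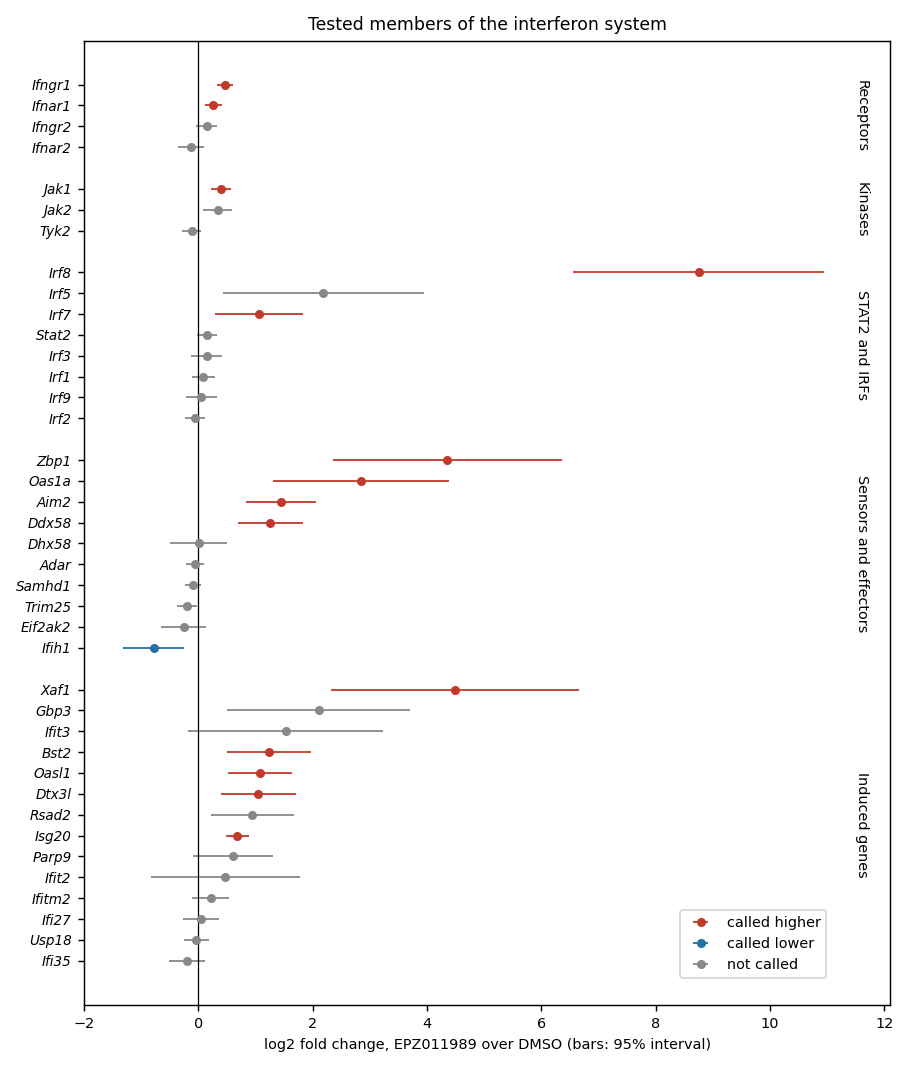
Log2 fold change of EPZ011989 over DMSO for the 39 tested members, grouped by role, with 95% intervals from the fit across all genes (n = 4 and 5). The 14 called rises lie right of 0 and Ifih1 lies left at -0.79; Irf8 had no count in DMSO, so its plotted value is not a bound.

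Stretches of DNA before the gene starts were searched for the letters through which interferon signals reach their targets. RefSeq promoter windows on GRCm38.p6, from 250 bases before to 50 bases after the start, were found for 43 of the 52 members (52 windows). The ISRE letters, GAAA followed by any 2 bases and GAAA again, stood on either strand in 17 of the 43 members (39.5%), against 3.99% of 27025 genes with a window. The letters TTCNNNGAA (GAS), which read the same on both strands, stood in 15 members (34.9%), against 9.55% of all genes. These are matches of letters and not shown sites of binding. By role the ISRE letters were in 10 of 19 induced genes, 5 of 9 sensors, 2 of 8 factors, 0 of 3 kinases and 0 of 4 receptors. By outcome they were in 3 of 13 members called higher (Ddx58, Oas1a and Bst2) and in the 1 called lower (Ifih1). They were also in 7 of 20 tested but not called, and 6 of 9 not tested.

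The windows shown are of members called higher (Irf8, Ddx58, Oas1a and Bst2), the member called lower (Ifih1), and a pair of classical interferon-induced genes, Isg15 and Ifit1, that were near 0 in both groups. Capitals mark every ISRE or GAS match, and matches that overlap form 1 run of capitals. Each window is printed 5′ to 3′ on the strand of its gene.
Irf8 (chr8:120736108-120736407, plus strand, GRCm38.p6): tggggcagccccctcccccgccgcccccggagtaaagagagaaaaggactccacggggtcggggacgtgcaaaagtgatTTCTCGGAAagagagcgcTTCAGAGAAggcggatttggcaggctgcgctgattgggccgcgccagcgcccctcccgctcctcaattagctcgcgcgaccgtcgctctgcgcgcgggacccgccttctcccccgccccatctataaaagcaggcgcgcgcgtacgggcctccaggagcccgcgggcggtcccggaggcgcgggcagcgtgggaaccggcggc
Ddx58 (chr4:40239776-40240075, minus strand, GRCm38.p6): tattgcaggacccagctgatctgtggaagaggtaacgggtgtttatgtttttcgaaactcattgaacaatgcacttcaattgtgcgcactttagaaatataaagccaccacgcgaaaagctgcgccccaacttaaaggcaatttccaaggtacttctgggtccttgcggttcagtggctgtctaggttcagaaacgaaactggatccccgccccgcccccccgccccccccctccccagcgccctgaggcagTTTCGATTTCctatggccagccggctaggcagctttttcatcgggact
Oas1a (chr5:120907476-120907775, minus strand, GRCm38.p6): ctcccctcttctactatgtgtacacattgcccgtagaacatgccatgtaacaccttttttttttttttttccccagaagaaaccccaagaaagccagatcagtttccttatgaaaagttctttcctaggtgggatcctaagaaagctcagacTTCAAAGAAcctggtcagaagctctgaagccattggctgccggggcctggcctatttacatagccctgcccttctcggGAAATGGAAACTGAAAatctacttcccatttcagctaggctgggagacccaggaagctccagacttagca
Bst2 (chr8:71537423-71537722, minus strand, GRCm38.p6): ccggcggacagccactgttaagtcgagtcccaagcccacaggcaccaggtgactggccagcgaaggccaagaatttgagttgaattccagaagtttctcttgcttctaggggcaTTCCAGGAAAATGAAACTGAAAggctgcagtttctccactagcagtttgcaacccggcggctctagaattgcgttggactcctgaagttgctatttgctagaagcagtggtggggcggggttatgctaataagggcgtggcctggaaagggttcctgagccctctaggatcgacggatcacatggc
Ifih1 (chr2:62646206-62646505, minus strand, GRCm38.p6): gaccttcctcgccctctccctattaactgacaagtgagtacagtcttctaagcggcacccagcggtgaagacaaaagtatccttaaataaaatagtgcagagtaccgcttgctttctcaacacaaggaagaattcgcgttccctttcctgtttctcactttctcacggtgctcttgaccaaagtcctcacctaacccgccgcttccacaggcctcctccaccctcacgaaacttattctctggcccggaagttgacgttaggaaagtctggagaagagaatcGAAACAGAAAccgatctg
Isg15 (chr4:156200769-156201068, minus strand, GRCm38.p6): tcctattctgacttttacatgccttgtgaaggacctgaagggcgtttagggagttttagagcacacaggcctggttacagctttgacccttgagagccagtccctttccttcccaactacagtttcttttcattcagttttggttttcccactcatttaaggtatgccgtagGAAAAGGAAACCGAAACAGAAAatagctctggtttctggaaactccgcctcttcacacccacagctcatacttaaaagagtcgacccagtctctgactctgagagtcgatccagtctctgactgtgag
Ifit1 (chr19:34640639-34640938, plus strand, GRCm38.p6): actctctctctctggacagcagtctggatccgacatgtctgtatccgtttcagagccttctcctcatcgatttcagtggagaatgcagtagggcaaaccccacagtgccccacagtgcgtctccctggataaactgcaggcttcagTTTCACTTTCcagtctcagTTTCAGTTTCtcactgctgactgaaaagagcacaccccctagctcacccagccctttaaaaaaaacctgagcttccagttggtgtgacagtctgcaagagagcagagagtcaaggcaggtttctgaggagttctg

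The Isg15 window holds 3 ISRE matches that overlap, starting at bases -78, -72 and -66 from the start of the gene, and Bst2 holds an overlapping pair at -130 and -124 beside a GAS match at -136. Oas1a holds an overlapping pair at -20 and -14. Ifit1 holds matches at -104 and -85, Ddx58 at 2 and Ifih1 at 32. The printed Irf8 window has no ISRE letters and has GAS matches at -171 and -153, and its other window has neither. The windows also differ in CpG content. A ratio of observed to expected CpG of at least 0.6 was found for 4 of 4 receptors, 3 of 3 kinases, 6 of 8 factors, 6 of 9 sensors and 1 of 19 induced genes, against 38.4% of all genes. For a gene with several windows the highest ratio was taken. Irf8, at a ratio of 1.03 in the printed window, lies among the CpG-rich ones, while its other window is at 0.357.

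**Figure D2:**
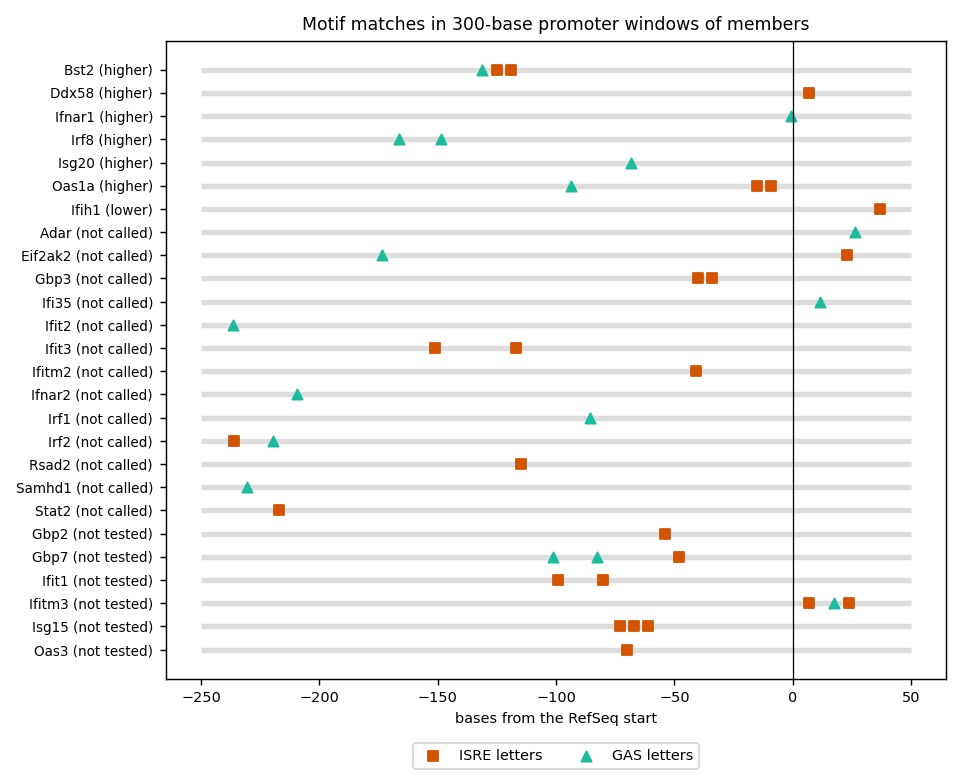
Positions of ISRE and GAS letter matches in the 300-base promoter windows of members, in bases from the RefSeq start, each symbol at the centre of its match. Isg15 shows 3 ISRE matches between -78 and -66, while Irf8 shows GAS matches alone.

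Of the receptor chains, Ifngr1 and Ifnar1 rose and their partners Ifngr2 and Ifnar2 were not called. Ifngr1, the ligand-binding chain for type II interferon, had 41.4, 40.1, 42.7 and 40.1 CPM in the EPZ011989 libraries, against 29.1, 30.7, 31.8, 29.5 and 28.5 CPM in the DMSO libraries. The lowest EPZ011989 library lay well above the highest DMSO library. Its log2 fold change was 0.46 ± 0.06 (SE; edgeR adjusted p = 0.000419). Ifnar1 had 45.5, 51.5, 44.9 and 43.9 CPM with EPZ011989, against 37.4, 38.4, 38.6, 39.9 and 39.99 CPM with DMSO, and the groups did not overlap. Its log2 fold change was 0.26 ± 0.07 (SE; edgeR adjusted p = 0.0187), and the call was lost without DMSO library 1 (0.0604), DMSO library 3 (0.0559) or EPZ011989 library 1 (0.0575).

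The second chains overlapped between the groups. Ifnar2 had 17.9, 13.6, 17.6 and 18.2 CPM in EPZ011989 cells, against 19.4, 19.7, 17.2, 18.4 and 17.1 CPM in DMSO cells (edgeR adjusted p = 0.43). Ifngr2 averaged 28.8 ± 1.93 CPM with EPZ011989 and 26.1 ± 2.26 CPM with DMSO (SD, n = 4 and 5; edgeR adjusted p = 0.27). Ifnar2, Ifnar1 and Ifngr2 lie close together on chromosome 16, so within this run of neighbours 1 of 3 was called. Whether the change of a chain differs from that of its partner was not tested.

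Of the kinases, Jak1, which serves both interferon types, rose. Jak1 had 113, 110.0, 102 and 94.4 CPM in the EPZ011989 libraries, against 85.0, 74.1, 82.4, 86.0 and 71.9 CPM in the DMSO libraries, without overlap. Its log2 fold change was 0.39 ± 0.08 (SE; edgeR adjusted p = 0.00462). Exons of Jak1 overlap those of Raver2, and whether counting used the strand is not given in the sources used here. Jak2, the kinase bound to IFNGR2, averaged 25.5 ± 3.98 CPM with EPZ011989 and 20.2 ± 1.93 CPM with DMSO (SD, n = 4 and 5). It was not called (edgeR adjusted p = 0.0536), but passed without EPZ011989 library 4 (0.0198), with DESeq2 (0.0383) and with some other scalings. Tyk2, the partner of IFNAR1, averaged 24.0 ± 2.07 CPM with EPZ011989 and 26.1 ± 1.22 CPM with DMSO (SD, n = 4 and 5; edgeR adjusted p = 0.315).

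Among the transcription factors Irf8 and Irf7 were called higher and the other 6 were not called. Irf8, a factor best known from myeloid and B cells, had 0.358, 0.619, 1.13 and 0.926 CPM in the EPZ011989 libraries and no count in any of the 5 DMSO libraries (edgeR adjusted p = 0.000636). All EPZ011989 libraries thus had Irf8 reads and no DMSO library did. Set against a floor of 12 counts per library, which is 3 fragments of about 4 counts, Irf8 was at least 4.32-fold higher. Its call held under every alternative that tested it, which the filter of 1 CPM in 4 libraries did not. No DMSO library passed the filter level, so Irf8 was tested only through its level with EPZ011989. All runs reuse the same DMSO values of 0, so the held call is no further support.

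Because Irf8 is a gene of blood cells, the leukocyte markers are given beside it. Of the 12 markers analysed 6 were tested and 1 was called, Lyz2, with a mean of 3.76 CPM in EPZ011989 cells and 0.289 CPM in DMSO cells (edgeR adjusted p = 0.000398). Of the 6 tested, 2, among them Lyz2, passed the filter with fewer than 4 DMSO libraries past its level. Itgam averaged 1.19 CPM with EPZ011989 and 0.445 CPM with DMSO, without overlap, and was not called (edgeR adjusted p = 0.0549). Cd14 went the other way, at 3.58 CPM with EPZ011989 and 4.82 CPM with DMSO, and was not called (edgeR adjusted p = 0.0728). The summed level of the 12 markers was 8.97 to 11.4 CPM in EPZ011989 libraries and 5.45 to 8.24 CPM in DMSO libraries. That sum joins markers that moved in opposite directions. Spi1 and Tyrobp had no count in any library, and Ptprc, the common leukocyte antigen, averaged 0.014 CPM with EPZ011989 and 0 with DMSO. In bulk RNA, more cells of a type and more RNA per cell cannot be told apart.

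Irf7, the factor that amplifies type I interferon, had 2.15, 1.08, 1.23 and 2.58 CPM in EPZ011989 cells, against 1.34, 0.928, 0.540, 0.642 and 0.772 CPM in DMSO cells. DMSO library 1 lay above 2 of the 4 EPZ011989 libraries, so the groups overlapped. The log2 fold change was 1.06 ± 0.35 (SE; edgeR adjusted p = 0.0475), just past the threshold. The call was lost without DMSO library 2 (0.0807), 3 (0.105), 4 (0.105) or 5 (0.0931) and without EPZ011989 library 1 (0.139) or 4 (0.143). It was lost as well with limma-voom (0.0622) and with no filter (0.0576). Exons of Irf7 overlap those of Phrf1.

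The core of the type I response was expressed in both groups and was not called. Stat2 averaged 27.4 ± 1.12 CPM with EPZ011989 and 24.8 ± 2.02 CPM with DMSO (SD, n = 4 and 5; edgeR adjusted p = 0.217). Irf9, its partner in ISGF3, averaged 6.69 ± 0.825 CPM with EPZ011989 and 6.45 ± 0.658 CPM with DMSO (edgeR adjusted p = 0.822). Irf3, which is activated by phosphorylation downstream of the sensors, averaged 41.9 ± 6.89 CPM with EPZ011989 and 38.0 ± 4.82 CPM with DMSO (edgeR adjusted p = 0.48). Irf1 and Irf2, an activator and a repressor that bind like letters, had adjusted p-values of 0.588 and 0.607. Irf5 had 0.212, 0.394, 0.264 and 0.154 CPM in EPZ011989 libraries, against 0.0271, 0, 0.0415, 0.0338 and 0.171 CPM in DMSO libraries. DMSO library 5 overlapped the EPZ011989 group, and Irf5 was not called (edgeR adjusted p = 0.0714). It passed without that library (0.0122), with DESeq2 (0.0486) and with limma-voom (0.0299). Only 1 DMSO library, the one left out there, was past the filter level, so the testing of Irf5 rests in part on EPZ011989. Its DMSO counts were 2, 0, 3, 2 and 12, at or below the floor, so these passes are not read as support.

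**Figure D3:**
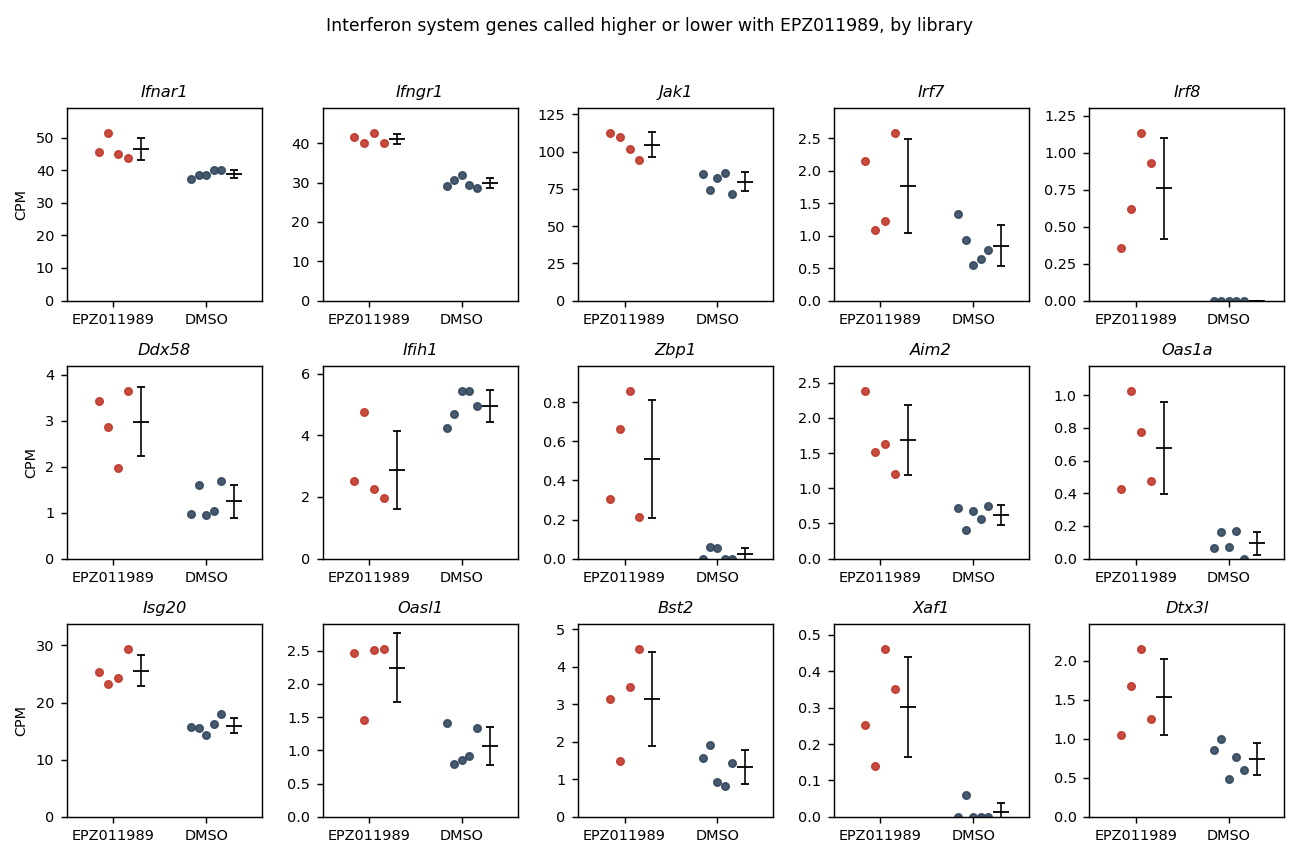
CPM of the 15 called members in each library, EPZ011989 left (n = 4) and DMSO right (n = 5), each panel on its own linear axis from 0, with a bar for the mean ± SD. Irf8 is at 0 in all DMSO libraries, and EPZ011989 library 2 lies among the DMSO libraries for Ifih1 (4.74 CPM), Bst2 (1.48 CPM) and Irf7 (1.08 CPM).

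The related RNA sensors Ddx58 and Ifih1 were called in opposite directions. Ddx58, which encodes RIG-I, a sensor of short RNA with a 5′ triphosphate, had 3.43, 2.86, 1.98 and 3.65 CPM in the EPZ011989 libraries. In the DMSO libraries it had 0.961, 1.59, 0.941, 1.05 and 1.69 CPM, all lower than any EPZ011989 library. Its log2 fold change was 1.26 ± 0.26 (SE; edgeR adjusted p = 0.00429), and the call held under every alternative run. Its promoter, printed above, carries ISRE letters at the start of the gene, and that of Ifih1, called lower, carries them at base 32.

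Ifih1, which encodes MDA5, had 2.52, 4.74, 2.27 and 1.95 CPM in EPZ011989 cells, against 4.24, 4.68, 5.44, 5.44 and 4.96 CPM in DMSO cells. Of the EPZ011989 libraries 3 lay below all DMSO libraries, while library 2 lay among them. The log2 fold change was -0.79 ± 0.24 (SE; edgeR adjusted p = 0.0364). Without EPZ011989 library 2 it was -1.15 (edgeR adjusted p = 0.000218), in a fit that called 2377 of 14927 genes lower. The call was lost without DMSO library 2 (0.0636), 3 (0.0587) or 4 (0.0588) and without EPZ011989 library 1 (0.0778), 3 (0.105) or 4 (0.0548), and also with scaling by library size alone (0.0578). Dhx58, which encodes LGP2, a regulator of the other RNA sensors, averaged 1.28 ± 0.185 CPM with EPZ011989 and 1.28 ± 0.275 CPM with DMSO (SD, n = 4 and 5; edgeR adjusted p = 0.99).

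Aim2 and Zbp1, sensors of other forms of nucleic acid, rose. Aim2, which senses cytoplasmic DNA and starts an inflammasome, had 2.39, 1.52, 1.64 and 1.21 CPM with EPZ011989, against 0.717, 0.413, 0.678, 0.557 and 0.743 CPM with DMSO. The groups did not overlap, and the log2 fold change was 1.44 ± 0.28 (SE; edgeR adjusted p = 0.00317). Zbp1, which binds Z-form RNA and DNA and can trigger necroptosis, had 0.305, 0.661, 0.857 and 0.211 CPM with EPZ011989, against 0, 0.0589, 0.0554, 0 and 0 CPM with DMSO (edgeR adjusted p = 0.00505). Only 8 counts of Zbp1 fell in the DMSO libraries together, so the ratio of 22.2 has a wide counting interval, 5.74 to 190. Aim2 and Zbp1 kept their calls under every alternative that tested them. For Zbp1 no DMSO library passed the filter level, so its held call is no further support.

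The 2′-5′ oligoadenylate synthetases make the messenger that activates RNase L. Oas1a had 0.424, 1.03, 0.778 and 0.477 CPM in EPZ011989 libraries, against 0.0677, 0.162, 0.0692, 0.169 and 0 CPM in DMSO libraries. The groups did not overlap, and the log2 fold change was 2.85 ± 0.70 (SE; edgeR adjusted p = 0.0122). Oas1a belongs to a run of near-identical copies, so how its reads were split is uncertain. Its call was lost without EPZ011989 libraries 2 and 4 together (0.0619). Oas2 was present in all EPZ011989 libraries at 0.0702 to 0.211 CPM and at 0 in all DMSO libraries, and Oas3 lay at 0 to 0.267 CPM with EPZ011989 and 0 to 0.171 CPM with DMSO. Neither passed the filter.

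The remaining sensors and effectors were well expressed and not called. Eif2ak2, which encodes PKR, a kinase that halts translation on double-stranded RNA, had 20.7, 34.3, 22.2 and 17.2 CPM with EPZ011989, against 32.2, 28.8, 29.7, 27.1 and 23.3 CPM with DMSO (edgeR adjusted p = 0.354). EPZ011989 library 2 was the highest of all 9 and the other EPZ011989 libraries were the lowest of all. Without library 2 the log2 fold change was -0.50 (edgeR adjusted p = 0.00735). That fit called 2377 of 14927 genes lower, where the fit with all libraries called 1174 of 14754. Trim25, the ubiquitin ligase that acts on RIG-I, had 43.8, 51.2, 50.5 and 44.0 CPM with EPZ011989, against 61.4, 52.8, 55.0, 51.5 and 52.2 CPM with DMSO. All its EPZ011989 libraries lay below all DMSO libraries, yet it was not called (log2 fold change -0.20 ± 0.08, SE; edgeR adjusted p = 0.0981). It passed without EPZ011989 library 2 (0.0315), with DESeq2 (0.0383) and with a trend with exon length removed from each library (0.0419). Adar, an RNA-editing enzyme that keeps self RNA from the sensors, averaged 76.5 ± 5.54 CPM with EPZ011989 and 79.9 ± 3.35 CPM with DMSO (SD, n = 4 and 5; edgeR adjusted p = 0.587). Samhd1, which breaks down deoxynucleotides, averaged 57.3 ± 1.92 CPM with EPZ011989 and 61.5 ± 2.98 CPM with DMSO (edgeR adjusted p = 0.285).

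Among the 25 other induced genes 14 were tested, of which 5 rose and 9 were not called. Isg20, a 3′ to 5′ exonuclease with antiviral activity, had 25.4, 23.2, 24.3 and 29.4 CPM in the EPZ011989 libraries, against 15.7, 15.5, 14.4, 16.2 and 18.0 CPM in the DMSO libraries. The groups lay far apart relative to their spread, with a log2 fold change of 0.68 ± 0.09 (SE; edgeR adjusted p = 0.000383). Oasl1, a relative of the oligoadenylate synthetases that in mouse limits translation of Irf7, had 2.47, 1.46, 2.51 and 2.53 CPM with EPZ011989, against 1.41, 0.796, 0.858, 0.912 and 1.34 CPM with DMSO. EPZ011989 library 2 came close to the DMSO group without overlapping it. The log2 fold change was 1.07 ± 0.26 (SE; edgeR adjusted p = 0.0105). Oasl1 exons overlap those of the unnamed gene model Gm13822.

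Bst2, which encodes tetherin, a membrane protein that holds budding viruses on the cell, had 3.14, 1.48, 3.46 and 4.48 CPM with EPZ011989, against 1.57, 1.92, 0.927, 0.810 and 1.44 CPM with DMSO. EPZ011989 library 2 lay below DMSO libraries 1 and 2. The log2 fold change was 1.23 ± 0.34 (SE; edgeR adjusted p = 0.0207), and the call was lost without DMSO library 3 (0.0519) or EPZ011989 library 1 (0.054), 3 (0.0581) or 4 (0.0616). Dtx3l, a ubiquitin ligase that works with PARP9, had 1.05, 1.67, 2.15 and 1.25 CPM with EPZ011989, against 0.853, 1.00, 0.484, 0.760 and 0.6001 CPM with DMSO. The groups did not overlap. Its log2 fold change was 1.05 ± 0.30 (SE; edgeR adjusted p = 0.0264), and the call was lost without DMSO library 3 (0.0613), 4 (0.053) or 5 (0.0621) or EPZ011989 library 3 (0.0999). Dtx3l and Parp9 overlap on opposite strands, and Parp9 itself was not called (1.10 ± 0.317 CPM with EPZ011989 and 0.727 ± 0.232 CPM with DMSO, SD; edgeR adjusted p = 0.214).

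Xaf1, a promoter of apoptosis, had 0.252, 0.141, 0.462 and 0.351 CPM with EPZ011989, against 0, 0.0589, 0, 0 and 0 CPM with DMSO (edgeR adjusted p = 0.00655). With 4 counts in all DMSO libraries together, its ratio of 25.7 has a counting interval of 4.16 to 1061. Uncalled members near the threshold were Gbp3 (edgeR adjusted p = 0.0581) and Rsad2 (0.0602), which DESeq2 called (0.017 and 0.0338). Gbp3, a guanylate-binding GTPase, had 0.742, 0.338, 1.28 and 0.407 CPM with EPZ011989, against 0.244, 0.206, 0.180, 0.169 and 0 CPM with DMSO, and the groups did not overlap. Rsad2, which encodes viperin, had 2.12, 2.00, 1.46 and 0.856 CPM with EPZ011989, against 0.677, 1.13, 0.498, 0.929 and 0.957 CPM with DMSO. Its EPZ011989 library 4 lay among the DMSO libraries.

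Ifit2, an RNA-binding protein of the IFIT family, had a single library far from its group. It had 10.5, 15.3, 9.88 and 0.505 CPM in the EPZ011989 libraries, against 7.48, 6.47, 7.57, 5.37 and 5.80 CPM in the DMSO libraries. Of the EPZ011989 libraries 3 lay above all DMSO libraries and library 4 lay below all of them. With all libraries Ifit2 was not called (log2 fold change 0.47 ± 0.59, SE; edgeR adjusted p = 0.639), and without EPZ011989 library 4 the log2 fold change was 0.84 (edgeR adjusted p = 0.00402). Ifit3, its neighbour on chromosome 19, did not share this pattern: it had 0.265, 0.436, 0.567 and 0.856 CPM with EPZ011989, highest in library 4, against 0.0541, 0.309, 0.332, 0 and 0.214 CPM with DMSO (edgeR adjusted p = 0.191).

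**Figure D4:**
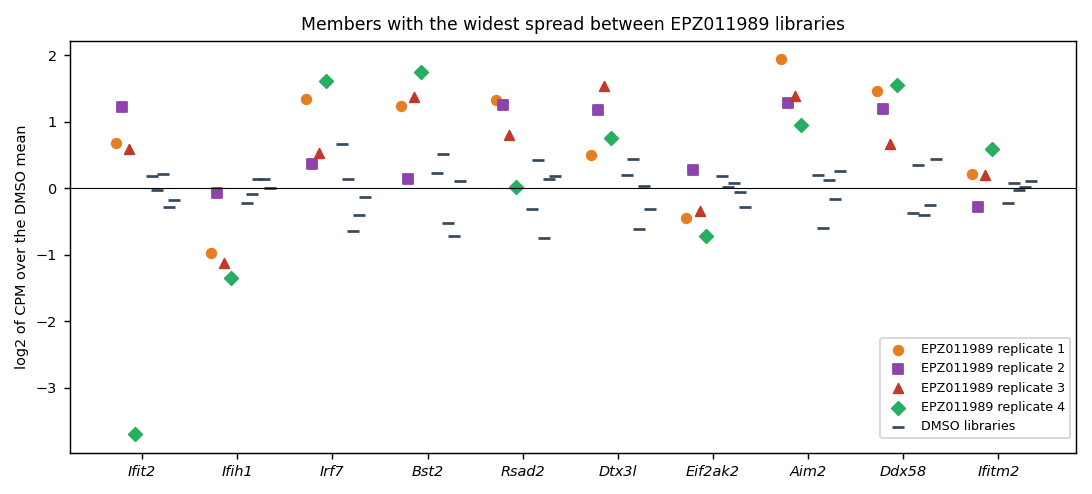
Log2 of each library's CPM over the DMSO mean. Shown are the tested members at a mean of 1 CPM or more with the largest coefficients of variation among EPZ011989 libraries. Ifit2 in EPZ011989 library 4, at 0.505 CPM, stands far below the other EPZ011989 libraries, and Ifih1 in EPZ011989 library 2, at 4.74 CPM, stands above its group.

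Of the 52 members 13 were too low to test, among them Isg15, Ifit1, Mx1 and Mx2. Isg15, which encodes a ubiquitin-like protein, had 0.199, 0, 0.198 and 0 CPM in EPZ011989 cells, against 0.176, 0.103, 0.0554, 0 and 0.114 CPM in DMSO cells. Ifit1 had 0.106, 0.211, 0 and 0.0561 CPM with EPZ011989, against 0.0677, 0, 0, 0 and 0 CPM with DMSO. These values lie around the floor of 12 counts, which is 0.158 to 0.203 CPM per library, so no difference was detectable at this depth. The 13 untested members were Oas2, Oas3, Ifit1, Isg15, Oasl2, Mx1, Mx2, Ifi44, Gbp2, Gbp7, Ifitm1, Ifitm3 and Parp14. Their group means reached at most 0.246 CPM with EPZ011989 and 0.117 CPM with DMSO, and 11 of the 13 had a higher mean with EPZ011989. That direction rests on few counts: Ifitm3 had 4, all in EPZ011989 library 1. The same share over all untested genes was not computed, so no rise is read from it. Ifi44 had no count in any library.

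Other induced genes were well expressed and did not pass the test. Usp18, which removes ISG15 from proteins and damps signalling at IFNAR2, averaged 9.96 ± 0.897 CPM with EPZ011989 and 10.2 ± 0.806 CPM with DMSO (SD, n = 4 and 5; edgeR adjusted p = 0.844). Ifi27 averaged 31.2 ± 6.34 CPM with EPZ011989 and 30.3 ± 4.06 CPM with DMSO (edgeR adjusted p = 0.884). Ifitm2, a membrane protein that blocks virus entry, averaged 67.1 ± 16.1 CPM with EPZ011989 and 57.9 ± 5.16 CPM with DMSO (edgeR adjusted p = 0.343). Its EPZ011989 libraries ran between 47.6 and 87.0 CPM, and without library 2 the log2 fold change was 0.34 (edgeR adjusted p = 0.0223). Its neighbours Ifitm1 and Ifitm3 were nearly absent. Ifi35 had an adjusted p of 0.382.

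Per kilobase of exon the members spanned a wide range of level. Ifitm2 stood first, at 102 CPM per kb with EPZ011989 and 88.4 with DMSO, followed in both groups by Ifi27 (21.2 CPM per kb with EPZ011989 and 20.7 with DMSO) and Jak1 (14.5 with EPZ011989 and 11.1 with DMSO). Ifngr1 (14.4 CPM per kb with EPZ011989 and 10.5 with DMSO) came in place 4 with EPZ011989 and 5 with DMSO. Isg20 (13.7 CPM per kb with EPZ011989 and 8.57 with DMSO) came in place 5 with EPZ011989 and 8 with DMSO. With EPZ011989 the neighbours Jak1 and Ifngr1 differed by less than the spread between libraries. In CPM, 18 members reached 10 or more with EPZ011989 and 19 with DMSO, while 12 lay under 0.2 with EPZ011989 and 20 with DMSO.

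**Figure D5:**
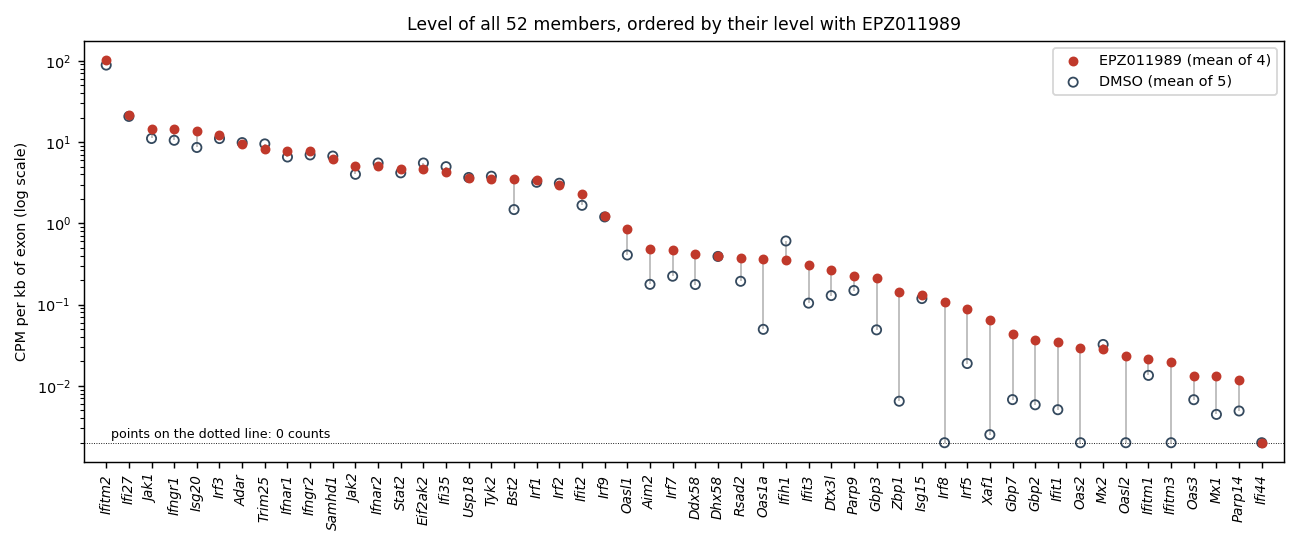
Level of all 52 members in CPM per kb of exon on a log axis, ordered by the level with EPZ011989. Ifitm2 leads at 102 CPM per kb with EPZ011989 and 88.4 with DMSO, and the right end holds the members near or at 0.

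Values of most members were more spread among EPZ011989 than among DMSO libraries. The coefficient of variation was larger with EPZ011989 in 23 of the 31 tested members at 1 CPM or more, with medians of 14.4% with EPZ011989 and 9.60% with DMSO. It was not computed over all genes, so whether members differ in this from other genes was not tested. Over all genes, treatment lay along principal component 1 (58.5% of the variance), and component 2 (24.4%) set EPZ011989 library 2 (score 38.6) apart from EPZ011989 library 4 (score -26.5). Over the 19 members at 10 CPM or more, the log2 ratio of EPZ011989 library 4 to library 2 fell with exon length across genes (Pearson r = -0.66, Spearman rho = -0.63); over the 31 at 1 CPM or more the values were -0.36 and -0.56. This is a description in which all points share the same pair of libraries. A trend with exon length was fitted over the tested genes at 1 CPM or more. At 1 kb it lay 0.27 above the average in EPZ011989 library 4 and at -0.23 in EPZ011989 library 2 on the log2 scale. With this trend removed from every library, 15 members were called higher and 2 lower.

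The wider pathway was read from 135 further genes found of 145 listed symbols. Of the 79 tested, 20 were called higher (25.3%) and 4 lower (5.06%), beside the background of 16.2% and 7.96%. Of these 79, 15 passed the filter with fewer than 4 DMSO libraries past its level; of the other 64, 15 were called higher (23.4%) and 4 lower (6.25%). Of the 19 interferon ligand genes found, 17 had no count in any library. Among the other 2, Ifnz was tested and not called, at 0.216 ± 0.121 CPM with EPZ011989 and 0.145 ± 0.0681 CPM with DMSO (SD, n = 4 and 5; edgeR adjusted p = 0.565). Its 4 EPZ011989 libraries and 5 DMSO libraries overlapped.

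Of 15 tested receptors, adaptors, kinases and nucleases of nucleic acid sensing, 2 rose (13.3%), beside the background of 16.2%. Tlr3, the endosomal receptor for double-stranded RNA, had 1.25, 1.65, 1.48 and 1.04 CPM with EPZ011989, against 0.568, 0.309, 0.457, 0.523 and 0.386 CPM with DMSO (log2 fold change 1.59 ± 0.28, SE; edgeR adjusted p = 0.00181). Ikbke, a kinase that phosphorylates IRF3 and IRF7, averaged 1.93 ± 0.366 CPM with EPZ011989 and 0.849 ± 0.412 CPM with DMSO (SD, n = 4 and 5; edgeR adjusted p = 0.0217). Its call was lost in 5 of 9 fits that left out a single library, at 0.0527 to 0.0729. Mb21d1, which encodes the DNA sensor cGAS, averaged 0.324 ± 0.150 CPM with EPZ011989 and 0.0747 ± 0.0738 CPM with DMSO and was not called (edgeR adjusted p = 0.112; limma-voom 0.0453). Tmem173, which encodes its adaptor STING, averaged 0.649 ± 0.171 CPM with EPZ011989 and 0.337 ± 0.0724 CPM with DMSO and was not called (edgeR adjusted p = 0.0832; DESeq2 0.0409).

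Of 19 tested receptors, STAT factors and brakes, 3 rose (15.8%) and 1 fell (5.26%), near the background of 16.2% and 7.96%. Of these 19, 3 passed the filter with fewer than 4 DMSO libraries past its level, Ifnlr1 among them. Ifnlr1, the specific chain of the type III interferon receptor, had 0.570, 0.408, 0.620 and 0.632 CPM with EPZ011989 and no count in any DMSO library, which is at least 3.17-fold higher (edgeR adjusted p = 0.000468). As with Irf8, all EPZ011989 libraries had reads and no DMSO library did. Cish, a feedback brake on cytokine receptors, averaged 7.85 ± 0.737 CPM with EPZ011989 and 4.68 ± 0.440 CPM with DMSO (SD, n = 4 and 5; edgeR adjusted p = 0.000741). Irf2bp2, a corepressor that binds IRF2, averaged 146 ± 4.26 CPM with EPZ011989 and 174 ± 6.23 CPM with DMSO (log2 fold change -0.25 ± 0.06, SE; edgeR adjusted p = 0.00695).

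Of 44 tested other induced genes, 15 rose (34.1%) and 3 fell (6.82%), beside the background of 16.2% and 7.96%. Of these 44, 9 passed the filter with fewer than 4 DMSO libraries past its level, so their being tested rests in part on EPZ011989. Trim56, a ubiquitin ligase with antiviral activity, averaged 11.04 ± 1.97 CPM with EPZ011989 and 4.10 ± 0.467 CPM with DMSO (log2 fold change 1.43 ± 0.15, SE; edgeR adjusted p = 4.52e-05). Ube2l6, the conjugating enzyme for ISG15, averaged 7.76 ± 1.26 CPM with EPZ011989 and 2.75 ± 0.628 CPM with DMSO (log2 fold change 1.496 ± 0.20, SE; edgeR adjusted p = 0.000277). ISG15 itself, as given above, was near 0 in both groups. Tdrd7 averaged 26.3 ± 2.54 CPM with EPZ011989 and 16.8 ± 0.683 CPM with DMSO (SD, n = 4 and 5; edgeR adjusted p = 0.00019). The 3 that fell were Lgals3bp, a secreted glycoprotein (20.9 ± 4.08 CPM with EPZ011989 and 38.6 ± 1.98 CPM with DMSO, SD; edgeR adjusted p = 0.000493), Parp10 and Psmb10. Parp10, which attaches single ADP-ribose units to proteins, averaged 11.4 ± 0.970 CPM with EPZ011989 and 16.5 ± 0.904 CPM with DMSO (edgeR adjusted p = 0.00114). Psmb10, a subunit of the immunoproteasome, averaged 17.5 ± 4.41 CPM with EPZ011989 and 25.4 ± 3.60 CPM with DMSO (edgeR adjusted p = 0.0366), and lost its call in 5 of 9 fits that left out a single library, at 0.0623 to 0.1, and with upper-quartile factors (0.0681). Psmb8, another subunit of the immunoproteasome on this list, was called higher. It averaged 0.971 ± 0.369 CPM with EPZ011989 and 0.196 ± 0.0915 CPM with DMSO (SD; edgeR adjusted p = 0.00418).

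The identity of the cells was checked against marker lists. All 12 alpha cell markers were tested, and Gcg, which encodes glucagon, averaged 18633 ± 2338 CPM with EPZ011989 and 19279.9 ± 804 CPM with DMSO (SD, n = 4 and 5; edgeR adjusted p = 0.778). Of the alpha cell markers 3 were called higher and 9 were not called. Markers of other cell types moved with the treatment as well: 5 of 6 tested fibroblast and stellate cell markers were called higher, with a summed level of 33.0 to 43.5 CPM in EPZ011989 libraries and 7.72 to 10.5 CPM in DMSO libraries. So were 2 of 3 tested endothelial markers, summed at 2.02 to 3.41 CPM with EPZ011989 and 0.374 to 1.16 CPM with DMSO, and 1 of 3 ductal markers, Sox9. Pdgfra made up most of the fibroblast and stellate sum, with means of 27.6 CPM with EPZ011989 and 7.29 CPM with DMSO. Vwf was the largest part of the endothelial sum, at 1.58 CPM with EPZ011989 and 0.638 CPM with DMSO. Pecam1 was not called (edgeR adjusted p = 0.217), and 4 of the 7 endothelial markers were too low to test. Of the 6 tested fibroblast and stellate cell markers 3 passed the filter with fewer than 4 DMSO libraries past its level. So did 2 of the 3 tested endothelial ones. The testing of such markers rests in part on a higher level with EPZ011989. Over all genes tested 16.2% were called higher. Dcn, Lum and Col3a1, also fibroblast markers, were too low to test. The part of the markers of other cell types in the changes of the interferon system was not tested.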

How the data were processed

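Gene-level RNA-seq values of 9 libraries were used. Per the submitters' processing notes, HISAT2, StringTie, DESeq2 and the build mm10 were used, without roles or versions; the sources used here do not say whether counting used the strand. The authors deposited whole-number counts per gene, used here, and a normalized table, not used here. Rows were told apart by gene identifier, since 136 symbols occur more than once. The commonest count above 0 was 1 (3970 values), yet 4 (3046) and 5 (2732) were commoner than 3 (2160) or 2 (2108). The floor and ratio intervals assume about 4 counts per fragment, which fits many values and not all, and counts are not independent reads. Totals were 60274140 to 74651782 counts per library. The floor for a gene at 0 was 12 counts per library. Floors and intervals of ratios (95%, exact, on counts divided by 4) cover counting error only.

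The members and lists were chosen with earlier results of these data known. After filterByExpr and TMM scaling, counts went into the robust quasi-likelihood F test of edgeR 4.0.16 in R 4.3.3, with treatment as the only term, two-sided, and Benjamini-Hochberg adjustment over 14754 genes. CPM is relative to the TMM-scaled library size. Errors of means are SDs between libraries, and SE is |log2 fold change| over the square root of F. Per-library values are given for called members and for uncalled ones that the account of a role needs; other pathway genes are named up to 4 per group by smallest p, and all that fell are named. Parp10, Psmb10 and Psmb8 were added after their values were seen. One gene that this rule takes is not reported here. Positions and exon lengths come from the annotation on GRCm38, the assembly of mm10; exons of 20 members, 4 of them called, overlap another gene. Promoter windows are from RefSeq on GRCm38.p6.

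In a simulation of 14754 genes, 89 of 100 true 2-fold changes and 99 of 100 true 4-fold changes were called, beside 9 false ones; all were set at 1 CPM or more, and lower genes were not simulated as changed. Replicates all differed beyond sampling noise (chi-square per degree of freedom at least 4.02). Alternatives were scaling by RLE factors, by upper quartiles or by library size, no filter, a filter of 1 CPM in 4 libraries, DESeq2 1.42.0, voom in limma 3.58.1, counts divided by 4, the replicate number as a block, leaving out each library, leaving out EPZ011989 libraries 2 and 4 together, and, chosen after seeing the data, removal of a trend with exon length.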

Additional observations from a re-analysis of the deposited data

Results flagged for a closer look

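In 78 checks of a member within a treatment group, 7 values stood far from the rest of their group. Chance alone gives about 1 in 20 checks. EPZ011989 library 2 held 3 of them. Ifnar2 was at 13.6 CPM there, and its nearest neighbour in the group was at 17.6 CPM. Tyk2 was at 27.04 CPM in that library, with the nearest at 23.3 CPM. Oasl1 was at 1.46 CPM in it, with the nearest at 2.47 CPM, still above all DMSO libraries. In EPZ011989 library 4, Irf1 was at 15.7 CPM, with the nearest at 13.0 CPM. Jak2 was at 16.9 CPM in DMSO library 5, with the nearest at 20.4 CPM. In the same library Irf5 was at 0.171 CPM, with the nearest at 0.0415 CPM. Xaf1 was at 0.0589 CPM in DMSO library 2, which is 4 counts, and had no count in the other DMSO libraries. The chance rate above does not hold for so few counts against 0.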

How the results depend on the processing

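The count of members called higher, 14, ranged from 10 to 16 when single libraries were left out, and from 10 (filter of 1 CPM) to 18 (DESeq2) under the other alternatives without a block. The replicate number as a block gave 8 members higher and 0 lower, 1550 and 471 genes over the whole table, and 12 and 2 other pathway genes; Ifnar1, Jak1, Irf7, Ifih1, Bst2, Xaf1 and Dtx3l lost their calls. Equal numbers did not pair the libraries: deviations of same-numbered libraries correlated at 0.05, -0.25, -0.26 and 0.11, and 0 of 4 matched best with their own number. The 1 member called lower became 0 with library size alone, 2 with DESeq2, 2 without EPZ011989 libraries 2 and 4, 2 with the length trend removed, and 0 to 3 when single libraries were left out. Genes called lower over the whole table were 1174, then 776 with upper-quartile factors (beside 2735 higher), and 781 without EPZ011989 library 3 to 2377 without EPZ011989 library 2. Genes called higher, 2388, ranged from 1861 to 2939 without single libraries. Other pathway genes called higher, 20, were 13 with the filter of 1 CPM, which tests fewer genes, and 14 to 23 without single libraries; those called lower, 4, were 3 to 6. Of 15 called members 7 kept their call under every alternative that gave a value, and 8 did not. The 7 were Ifngr1, Irf8, Ddx58, Zbp1, Aim2, Isg20 and Oasl1. Irf8 and Zbp1 were tested only through their level with EPZ011989, so their held calls are no further support. Of 24 uncalled members 8 were called under at least 1 alternative. Of 773 recomputed member values, 690 kept direction and side of the threshold, 36 lost and 28 gained a call, and 19, all of uncalled members, changed sign. On the log2 scale the sign changes were Ifit2 at -0.27 with voom and -0.053 with the block, Usp18 at 0.017 with upper-quartile factors and 0.0062 with library size alone, and Dhx58 at -0.012 with RLE factors, -0.0024 without a filter, -0.0099 with DESeq2 and -0.0049 without EPZ011989 libraries 2 and 4. Without single libraries Dhx58 ranged from -0.096 to 0.11, Irf1 from -0.019 to 0.11, Irf9 from -0.022 to 0.12 and Ifi27 from -0.099 to 0.14. The cause of these changes was not tested. Depth limits the 13 untested members and those under 1 CPM.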
